A study of Mus musculus with 295 samples.

Results

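Atf3, Fos, Egr1, Ier3 and Nr4a1 are immediate early genes, and their transcript ratios were followed over 295 mice in adipose tissue. They are 5 of the 11454 genes that the arrays represent by a probe with a single gene symbol, and each is measured by 1 probe. The members were taken by symbol from the platform's probe table. They were chosen by their correlations on these same arrays: some follow the macrophage markers Adgre1 and Cd68, and others oppose Lep, the mRNA of the fat cell hormone leptin. Relations to those markers are therefore given as a description, with no test. The mice were F2 females and males from an intercross of C57BL/6J and C3H/HeJ, all ApoE null, and all ate a high fat Western diet from 8 to 24 weeks of age. There is 1 array per mouse, with the mouse's adipose RNA in Cy3 set against a shared Cy5 pool of the mice's own RNAs, so each value is a ratio to an average of the cohort. Values are given as log2 ratios of mouse over pool, read from a deposited scale taken as log10. The labels used here name no fat depot and give no sex, phenotype or handling for single mice. Every mouse lacks ApoE and ate the same diet, so there is no group without either.

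Immediate early genes are transcribed within minutes of a growth factor, cytokine or stress signal, without new protein synthesis, and their transcripts decay quickly. Fos dimerizes with JUN proteins to form AP-1, and Atf3 encodes a bZIP factor that often represses its targets. Egr1 encodes a zinc finger factor, Nr4a1 an orphan nuclear receptor and Ier3 a small protein linked to cell survival. In fat, both fat cells and the macrophages between them can make such transcripts, and macrophage genes are known to rise in obese adipose tissue. Bulk tissue cannot tell fewer cells of a type from less RNA per cell.

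The region before the transcription start is where the signals that set these genes off are read, so it is shown for the members with a RefSeq promoter entry. All 4 RefSeq promoter entries used are from GRCm38.p6, and the windows cover the 250 bases before the start that RefSeq's entry uses. For Atf3, Fos and Ier3 that start is where the annotated gene begins in its direction of transcription. The Nr4a1 window instead lies inside the annotated gene span, before an internal start. Capitals mark each TGACG on either strand, the core of the cAMP response element that CREB and ATF family factors are known to bind.
Atf3, chr1:191183334-191183583, minus strand: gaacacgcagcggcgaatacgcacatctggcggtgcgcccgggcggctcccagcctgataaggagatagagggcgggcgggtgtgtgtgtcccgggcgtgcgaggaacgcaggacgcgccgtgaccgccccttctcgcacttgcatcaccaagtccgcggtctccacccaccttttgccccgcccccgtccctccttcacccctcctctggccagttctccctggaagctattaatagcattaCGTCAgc
Fos, chr12:85473640-85473889, plus strand: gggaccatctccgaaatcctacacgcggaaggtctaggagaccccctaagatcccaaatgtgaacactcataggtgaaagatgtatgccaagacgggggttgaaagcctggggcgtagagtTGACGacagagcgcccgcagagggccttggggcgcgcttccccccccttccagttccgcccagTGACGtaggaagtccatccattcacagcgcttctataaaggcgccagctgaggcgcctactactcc
Ier3, chr17:35821463-35821712, plus strand: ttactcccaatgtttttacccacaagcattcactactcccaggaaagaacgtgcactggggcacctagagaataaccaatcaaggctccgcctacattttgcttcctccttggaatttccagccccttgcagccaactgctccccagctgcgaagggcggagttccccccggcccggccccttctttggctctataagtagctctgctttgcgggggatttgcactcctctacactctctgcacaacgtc
Nr4a1, chr15:101266596-101266845, plus strand: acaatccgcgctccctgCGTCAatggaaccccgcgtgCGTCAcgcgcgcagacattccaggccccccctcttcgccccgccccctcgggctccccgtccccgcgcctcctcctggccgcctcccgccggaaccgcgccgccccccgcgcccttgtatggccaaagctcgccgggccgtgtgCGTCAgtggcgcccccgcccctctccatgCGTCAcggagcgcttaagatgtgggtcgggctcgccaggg
The core occurs 1 time before Atf3, 2 times before Fos, 4 times before Nr4a1 and 0 times before Ier3. Of 32851 RefSeq promoter windows of this length, 17.8% hold it at least 1 time. The full palindrome TGACGTCA, which contains the core on both strands, was in none of the 4 windows and is in 1.55% of all windows. The TATA box TATAAA stands before Fos alone among the 4 and is in 12.4% of all windows. The letters of the NF-kB site were found before Fos and before Ier3 and in 3.9% of all windows, and those of the EGR site GCGNGGGCG before Nr4a1 and in 4.7%. No window held the AP-1 letters TGANTCA (6.75% of all windows), the NR4A element AAAGGTCA (1.34%) or the CArG box (1.47%). Bases outside the 250 shown were not searched, so these absences hold for the windows only and do not show that a gene lacks such a site. These are matches of letters, not bound sites, and the GC content of the windows ran from 54.4% before Ier3 to 74.4% before Nr4a1. The genes themselves lie at chr1:191170296-191183333 (Atf3), chr12:85473890-85477274 (Fos), chr17:35821713-35822911 (Ier3) and chr15:101253902-101274795 (Nr4a1).

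The mice fell apart at Eif2s3y, a gene of the Y chromosome. Above the cut of -0.6 on the deposited log10 scale stood 153 mice, none below -0.10 on the log2 scale, and below it 142 mice, none above -4.16. These sets are called Eif2s3y-high and Eif2s3y-low. A further 48 arrays, all in the Eif2s3y-high set, carried transcripts of the epididymis, an organ that lies against the gonadal fat of males. Their mean z-score over 9 of 11 epididymis genes was at least 1.76, against at most 0.98 on the other 247 arrays, and results that move without them are given both ways. Because every value is a ratio to a pool of the same tissue, the arrays cannot show whether an adipocyte marker is present or absent. The 8 measured of 13 adipocyte markers lay between -1.62 and 0.90 on the log2 scale in their mean per mouse.

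Atf3 varied most. Its log2 ratio had a lowest value of -2.09, a median of -0.04 and a highest value of 1.85 over 294 mice, with an SD of 0.93 (standard error 0.04). The central 90% of mice spanned 8.30-fold, and 96.8% of all probes had a smaller SD. The median was 0.49 in Eif2s3y-high mice (from -1.98 to 1.85, n = 153) and -0.71 in Eif2s3y-low mice (from -2.09 to 1.57, n = 141). The ranges of the sets overlapped over nearly their whole length, although 25% of Eif2s3y-high mice lay above 0.96 and 25% of Eif2s3y-low mice below -1.35.

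Fos, whose protein is the classic partner of JUN in AP-1, had log2 ratios from -0.81 through a median of 0.03 to 0.95 (SD 0.34, standard error 0.01, n = 295), a span of 2.13-fold over the central 90% of mice. Its median was 0.16 in Eif2s3y-high mice and -0.13 in Eif2s3y-low mice, with ranges of -0.81 to 0.95 and -0.70 to 0.74 that overlapped almost fully. Egr1, at chr18:34861207-34864956 on the same build, ran from -1.32 through -0.06 to 0.80 (SD 0.42, standard error 0.02, n = 290), a span of 2.73-fold. Its median was 0.03 in the Eif2s3y-high set and -0.26 in the Eif2s3y-low set. Atf3, Fos and Egr1 thus had their higher median in the same set.

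Ier3 ran from -1.12 through -0.06 to 1.55 (SD 0.46, standard error 0.02, n = 295), a span of 2.72-fold. Nr4a1 ran from -0.94 through 0.04 to 1.20 (SD 0.27, standard error 0.01, n = 295), a span of 1.78-fold, below the median SD of all probes (0.29). For these genes the medians of the sets lay close together, at -0.05 in Eif2s3y-high mice and -0.06 in Eif2s3y-low mice for Ier3, and at 0.05 in Eif2s3y-high and 0.04 in Eif2s3y-low mice for Nr4a1. Within the Eif2s3y-high set the 48 arrays with epididymis transcripts had a median Ier3 of 0.30, against -0.24 on the other 105 arrays, and a median Nr4a1 of 0.17, against -0.01 on the other 105. Atf3 and Fos went the other way, with medians on the epididymis arrays of 0.04 for Atf3 and -0.05 for Fos, against 0.66 and 0.30 on the other 105. The part of the epididymis arrays in these medians was not tested.

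**Figure D1:**
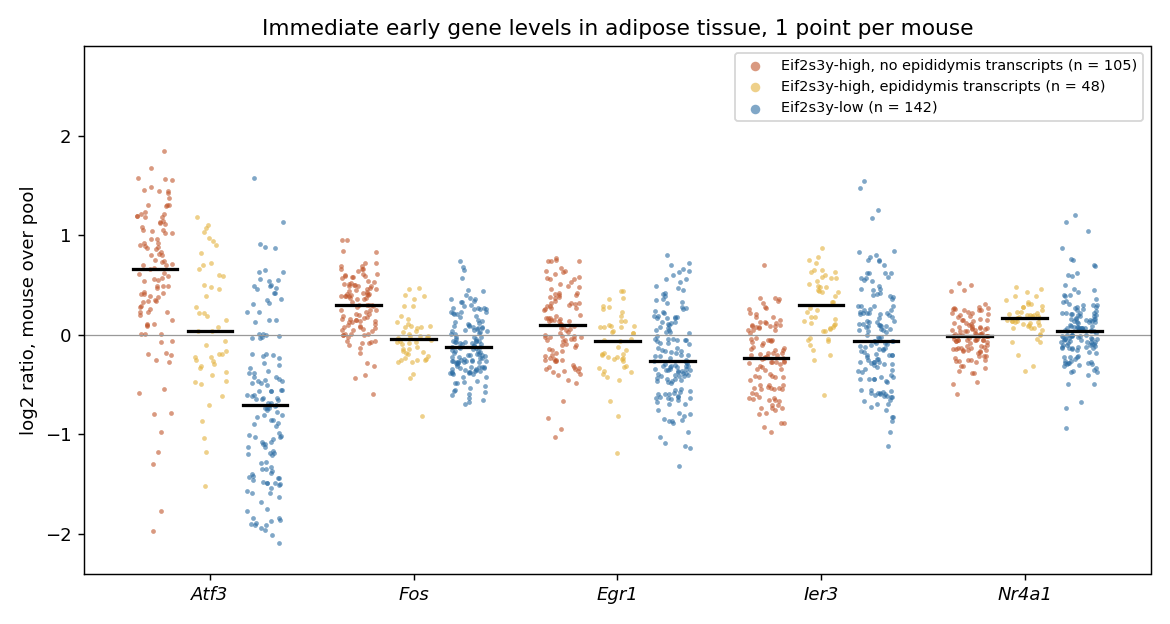
Log2 ratio of mouse over pool (vertical axis) for the 5 genes, 1 point per mouse and a bar at each median, for Eif2s3y-high mice without and with epididymis transcripts and for Eif2s3y-low mice. The Atf3 median is 0.66 on Eif2s3y-high arrays without those transcripts and -0.71 in Eif2s3y-low mice, while the 4 highest Ier3 points, at 1.17 to 1.55, and the highest Nr4a1 point, at 1.20, are Eif2s3y-low mice.

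Single mice at the extremes were seldom extreme in all 5 genes. Mouse 56, an Eif2s3y-high mouse, had the highest Atf3 (1.85) and the highest Fos (0.95), with Egr1 at 0.02, Ier3 at -0.04 and Nr4a1 at -0.23. Mouse 46 had Fos at -0.63 and Atf3 at -1.91 but Ier3 at 1.17, Egr1 at 0.49 and Nr4a1 at 0.43. Mouse 70 was high in both Lep-opposing genes, with Ier3 at 1.47 and Nr4a1 at 1.13, and low in Atf3 (-1.46) and Fos (-0.38). The 4 mice highest in Ier3 (68, 70, 51 and 46) had Atf3 between -1.91 and -1.46, and all 4 were Eif2s3y-low. Mouse 83 was mixed, with Atf3 at -2.01 and Nr4a1 at its lowest value of -0.94 but Fos at 0.74. Mouse 262 was lowest of all in both Egr1 (-1.32) and Ier3 (-1.12), while its Fos stood at 0.36.

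The values that chose the genes divide them as follows. Atf3 had Pearson r of 0.89 with Adgre1, the F4/80 antigen, and 0.90 with Cd68, a lysosomal protein of phagocytes, and 0.04 with Lep (295 mice). Fos had 0.75, 0.83 and 0.15 with the same genes. By the rule of r above 0.3 with both markers, Atf3 and Fos follow the macrophage markers. Ier3 had -0.31 with Adgre1, -0.31 with Cd68 and -0.53 with Lep, and Nr4a1 had -0.27, -0.23 and -0.53. Both oppose Lep by the rule of r below -0.3. Over all mice Egr1 belongs to neither class, with 0.14, 0.24 and -0.29, and its value for Lep lies just outside the threshold. With Lep it had -0.17 in Eif2s3y-high mice and -0.38 in Eif2s3y-low mice, the second past the threshold. On the 247 arrays without epididymis transcripts it had -0.35, also past it. The mice share 1 pool, and these are descriptions of how the members were picked.

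The choice also drew on values within the sets, so likeness of the sets for the defining markers is part of it and no test. Atf3 had 0.88 and 0.90 with Adgre1 and Cd68 in Eif2s3y-high mice, and 0.85 and 0.85 in Eif2s3y-low mice. Ier3 had -0.57 with Lep in the Eif2s3y-high set and -0.53 in the Eif2s3y-low set, and Nr4a1 had -0.51 in the Eif2s3y-high and -0.58 in the Eif2s3y-low set. The other relations were less even. With Lep, Atf3 had -0.05 in Eif2s3y-high mice and 0.32 in Eif2s3y-low mice, and Fos had 0.04 in Eif2s3y-high and 0.42 in Eif2s3y-low mice. Egr1 had 0.41 with Cd68 and 0.31 with Adgre1 in the Eif2s3y-high set, and -0.09 and -0.19 in the Eif2s3y-low set, so its sign changed between the sets. These differences between sets were not tested. Within the Eif2s3y-high set, leaving out the epididymis arrays put Fos at -0.23, Atf3 at -0.19 and Egr1 at -0.39 with Lep, and Ier3 at 0.06 with Adgre1. On the 48 epididymis arrays alone, r with Lep was -0.18 for Ier3 and -0.27 for Nr4a1.

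**Figure D2:**
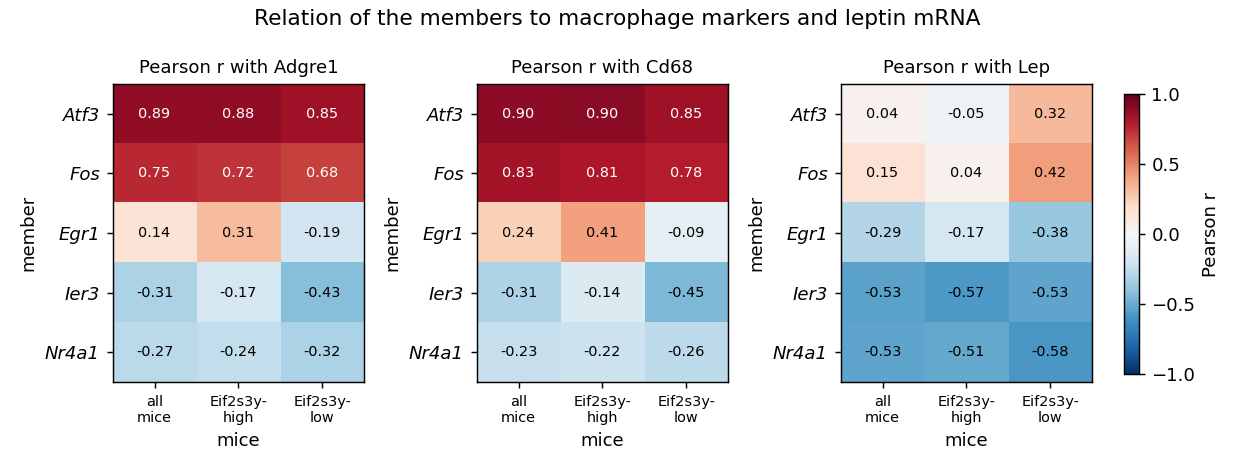
Pearson r of each gene (rows) with Adgre1, Cd68 and Lep (panels), over all 295 mice, the 153 Eif2s3y-high and the 142 Eif2s3y-low mice (columns), with colour running from -1 to 1. Atf3 and Fos are dark red for Adgre1 and Cd68 in every column, Ier3 and Nr4a1 are blue for Lep in every column, and Egr1 changes colour between the sets for Adgre1 and Cd68.

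Among the 10 pairs of these genes, 6 had a positive and 4 a negative r over all mice. Pairs whose members were placed by the same markers inherit part of their direction from that choice. Atf3 and Fos had r = 0.78 (Spearman rho 0.80, and r = 0.81 without the 2 mice farthest from the Atf3 median), with 0.80 in Eif2s3y-high and 0.66 in Eif2s3y-low mice. Ier3 and Nr4a1 had 0.44 (rho 0.44, and 0.41 without 2 mice), with 0.43 in Eif2s3y-high and 0.46 in Eif2s3y-low mice. Across the classes r was small and negative in all 4 pairs: -0.27 for Fos with Ier3, -0.19 for Atf3 with Ier3, -0.17 for Fos with Nr4a1 and -0.08 for Atf3 with Nr4a1.

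Egr1, which over all mice belongs to neither class, was positively related to all 4 other genes. Its r with Lep was past the threshold in Eif2s3y-low mice, so its pairs with Ier3 and Nr4a1 are not free of the choice. Its r was 0.45 with Nr4a1 (adjusted p = 1.73e-14), 0.37 with Ier3 (1.04e-09), 0.34 with Fos (1.40e-08) and 0.30 with Atf3 (5.64e-07), each p being the larger of both directions of fit in limma with Benjamini-Hochberg adjustment over all probes. On ranks the same pairs had rho of 0.44, 0.35, 0.35 and 0.33. Without the 2 mice farthest from the Egr1 median the r was 0.43 with Nr4a1 and 0.34 with Ier3. Of 22893 probes, 62% passed the test with Egr1 (27.5% higher and 34.5% lower). The share called with Atf3 was 73.1%, with Fos 49%, with Ier3 62.3% and with Nr4a1 65.5%. Passing this test over 295 mice was thus common among all probes.

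With Lep, the mean of Adgre1 and Cd68, the Eif2s3y set and the epididymis arrays in the model, all 10 pairs had a positive partial r, and 8 passed. The shares of 22889 probes called in this model were 74.2% for Atf3 (40.5% higher and 33.8% lower), 41.9% for Fos (23.1% and 18.8%), 52.5% for Egr1 (23.1% and 29.4%), 44% for Ier3 (18.5% and 25.5%) and 57.2% for Nr4a1 (26.6% and 30.5%). Egr1 with Nr4a1 and Egr1 with Ier3 were highest, at partial r of 0.46 (adjusted p = 3.19e-14) and 0.44 (3.45e-12), close to their values with no covariate. Atf3 and Nr4a1, at -0.08 before, stood at 0.33 (1.35e-07), and Atf3 and Ier3, at -0.19 before, stood at 0.16 (0.0151). Atf3 itself had r of 0.91 with the mean of Adgre1 and Cd68. Its partial r thus describes only the small part of its variation that the covariates leave. Atf3 and Fos dropped to 0.21 (0.00134), and Ier3 and Nr4a1 to 0.18 (0.00653). Fos and Egr1 kept 0.30 (2.34e-06) and Atf3 and Egr1 kept 0.21 (0.000971). Fos did not pass with Ier3 (0.04, adjusted p = 0.57) or with Nr4a1 (0.09, adjusted p = 0.237). On ranks, Fos and Nr4a1 had 0.17 and did pass (adjusted p = 0.0173).

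**Figure D3:**
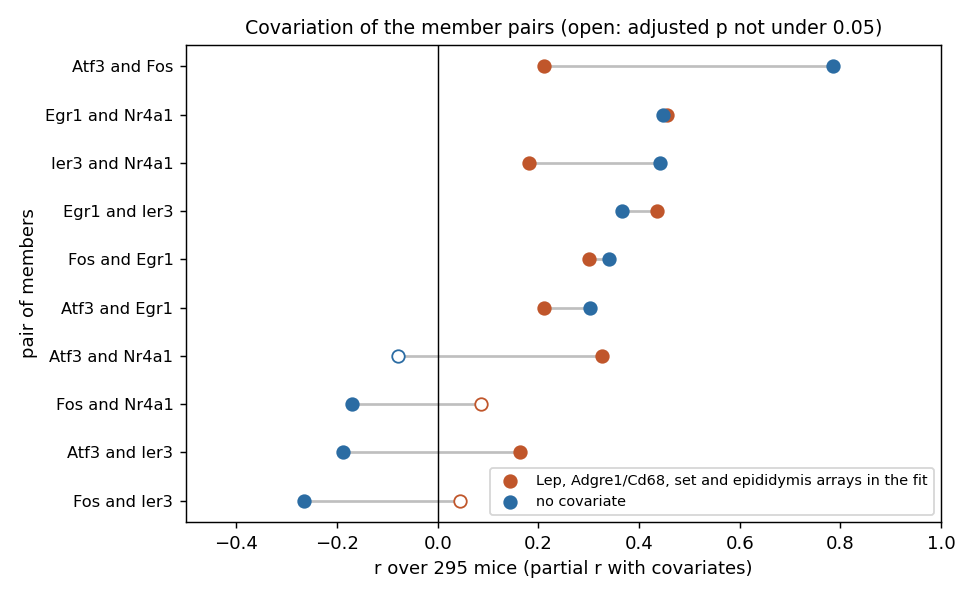
Correlation of each of the 10 pairs (rows) over 295 mice, as r with no covariate (blue) and as partial r with Lep, Adgre1/Cd68, set and epididymis arrays in the fit (orange), open circles marking pairs whose adjusted p was not under 0.05. The orange points all lie right of 0, between 0.04 and 0.46, while 4 blue points lie left of it.

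The relation of Egr1 to the other genes differed between the Eif2s3y sets. The interaction model had no term for Lep, Adgre1 or Cd68. Relations to those markers within the sets were among the values that chose the genes, so these tests are not free of that choice. Egr1 had r of 0.41 with Cd68 in Eif2s3y-high mice and -0.09 in Eif2s3y-low mice, and Fos had 0.81 and 0.78. Fos rose by 0.45 (standard error 0.06) log2 units for each log2 unit of Egr1 in Eif2s3y-high mice, where r was 0.53, and by 0.0026 (standard error 0.05) in Eif2s3y-low mice, where r was 0.0038. The difference of the slopes, high minus low, was 0.45 ± 0.08 (SE; limma adjusted p = 5.74e-06). Atf3 on Egr1 behaved alike, with slopes of 0.73 in the Eif2s3y-high and 0.05 in the Eif2s3y-low set, a difference of 0.68 ± 0.21 (adjusted p = 0.0072). Ier3 and Nr4a1 ran the other way. The slope of Ier3 on Egr1 was 0.22 in Eif2s3y-high mice and 0.62 in Eif2s3y-low mice, a difference of -0.40 ± 0.12 (0.00474). That of Nr4a1 was 0.18 in Eif2s3y-high and 0.43 in Eif2s3y-low mice, a difference of -0.25 ± 0.07 (0.00272).

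All 4 slopes on Egr1 thus differed, where 36.4% of 22893 probes did (22.7% higher and 13.8% lower in Eif2s3y-high mice). In the reverse direction, the slope of Egr1 differed on Fos by 0.60 ± 0.14 (adjusted p = 0.000282), on Atf3 by 0.17 ± 0.06 (0.0285) and on Ier3 by -0.33 ± 0.09 (0.00267), while on Nr4a1 the difference of -0.22 ± 0.16 did not pass (0.324). Among pairs without Egr1, the slope of Fos on Atf3 differed by 0.10 ± 0.03 (0.0133). With the other genes as the regressor, the share of all probes that differed was 20.2% for Atf3 (11.8% higher and 8.4% lower), 47.7% for Fos (27.9% and 19.8%), 40.8% for Ier3 (13% and 27.8%) and 23.2% for Nr4a1 (7.95% and 15.3%). With array medians removed, the share of called probes that were higher was 49.4% for Atf3, 40.2% for Fos, 51.8% for Egr1, 56.4% for Ier3 and 60.7% for Nr4a1, against 58.4%, 58.5%, 62.2%, 31.8% and 34.2% as deposited.

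The 48 epididymis arrays, all in the Eif2s3y-high set, bear on these differences. Without them the share of all probes that differed was 9.59% for Atf3, 35.8% for Fos, 16.4% for Egr1, 11.1% for Ier3 and 2.6% for Nr4a1. Fos on Egr1 still differed without them, by 0.37 ± 0.09 (limma adjusted p = 0.00285), and Egr1 on Fos by 0.59 ± 0.17 (0.00521). The differences on Egr1 for Atf3 (0.54, adjusted p = 0.0971), Ier3 (-0.24, 0.144) and Nr4a1 (-0.15, 0.143) no longer passed, and that of Egr1 on Ier3 was -0.06 (0.786). On the 105 Eif2s3y-high arrays without epididymis transcripts, r of Egr1 was 0.47 with Fos, 0.31 with Atf3, 0.41 with Ier3 and 0.50 with Nr4a1. In the 142 Eif2s3y-low mice the same r were 0.0038, 0.03, 0.56 and 0.58. The pair of Fos and Egr1 was the one whose difference passed in both directions with and without the epididymis arrays.

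**Figure D4:**
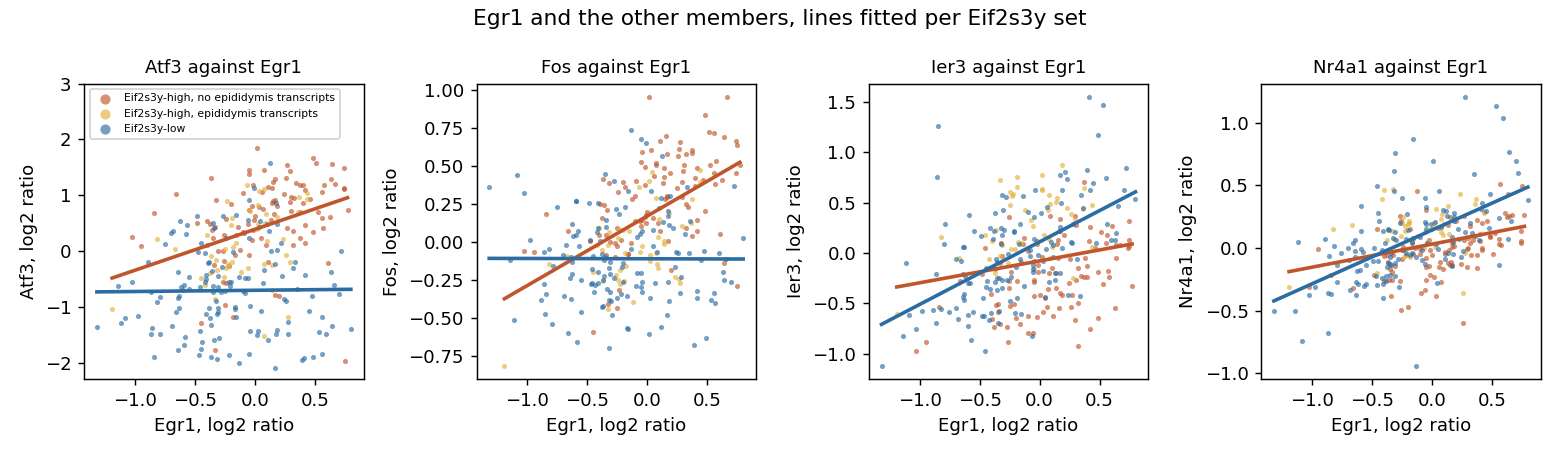
Log2 ratio of Atf3, Fos, Ier3 and Nr4a1 (vertical axes) against that of Egr1 (horizontal axes), 1 point per mouse, with a straight line fitted in each Eif2s3y set (orange for high, blue for low). The lines leave out mice with no Egr1 value. The limma slope of Fos, with those gaps filled, was 0.45 per log2 unit of Egr1 in Eif2s3y-high mice and 0.0026 in Eif2s3y-low mice. The Ier3 and Nr4a1 lines are steeper in Eif2s3y-low mice.

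Most other early response genes were higher where Egr1 was higher. Of 29 measured in a list of 32, 24 were higher and 0 lower with Egr1 (limma adjusted p under 0.05), where 27.5% and 34.5% of all probes were, and their median r was 0.27 against -0.02 over all probes. Ier2, a nuclear early response protein, led with 0.77, before the growth regulator Myc (0.60) and Srf (0.58), the serum response factor that itself drives many early genes. Ier2 was also higher with the other 4 genes, at r of 0.53 with Nr4a1, 0.46 with Ier3, 0.42 with Atf3 and 0.33 with Fos. With Nr4a1, 15 were higher and 3 lower (29% and 36.5% of all probes), with Myc at 0.50 and the kinase Sik1 at 0.42. With Ier3, 10 were higher and 8 lower (22.7% and 39.6%), with the GTPase Gem at 0.42 and Rhob at -0.37. With Lep, the macrophage markers, set and epididymis arrays in the model the balance for Ier3 was 14 higher and 1 lower, where 18.5% and 25.5% of all probes were. In that model Egr1 had 21 higher and 2 lower (23.1% and 29.4%), Atf3 19 and 2 (40.5% and 33.8%), Nr4a1 17 and 1 (26.6% and 30.5%), and Fos 17 and 0 (23.1% and 18.8%), the last being 1 lower at an unadjusted limma p under 0.05.

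Other members of the same list led for Atf3 and Fos. With Atf3, 18 of the 29 were higher and 1 lower (33% and 40.2% of all probes), led by the polo-like kinase Plk2 at 0.90, Ier5 at 0.73 and Gadd45b at 0.71. With Fos, 17 were higher and 1 lower (24.7% and 24.3%), led by Plk2 (0.73), the small GTPase Rhob (0.72) and Ier5 (0.69). Srf, at 0.58 with Egr1, had -0.07 with Atf3 and 0.08 with Fos, neither past the test. Rhob, by contrast, had 0.04 with Egr1 and was lower with Nr4a1 (-0.43). Plk2 itself had partial r of 0.51 with Atf3, past the test, and 0.01 with Fos, not past it, when Lep, the macrophage markers, set and epididymis arrays were in the model.

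Of the AP-1 subunits and partners, 9 of 11 were measured. Egr1 had 7 higher and 1 lower (27.5% and 34.5% of all probes), with Junb (0.51), Jund (0.43) and Jun (0.42) at the head and Fosl2 lower (-0.15). Fos had 6 higher and 0 lower (24.7% and 24.3%), Nr4a1 had 4 and 0 (29% and 36.5%), and Ier3 had 2 and 2 (22.7% and 39.6%). These counts of 0, and those given for the other lists without covariates, were also 0 at an unadjusted limma p under 0.05. Atf3 had 5 higher and 2 lower (33% and 40.2% of all probes), from Fosl1 (0.80) and Junb (0.67) to Fosl2 (-0.38) and Jdp2 (-0.33). Jun, the main partner of Fos, had 0.20 with Fos and 0.07 with Atf3, the second not past the test. Relations of Atf3 and Fos without covariates carry part of their choice by macrophage markers. Once the markers were in the model, Jund was the AP-1 gene most related to Fos, at a partial r of 0.50. Fosl1 (0.09) and Junb (0.07) then did not pass with Fos. Atf3 had 3 higher and 1 lower there (40.5% and 33.8% of all probes). Fos had 5 and 0 (23.1% and 18.8%), and Egr1 8 and 0 (23.1% and 29.4%). Nr4a1 had 5 and 0 (26.6% and 30.5%), and Ier3 3 and 1 (18.5% and 25.5%). Each 0 was also 0 at an unadjusted limma p under 0.05.

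Among 7 measured relatives of Egr1 and Nr4a1, Nab2, a corepressor of EGR factors, was higher with Egr1 (0.57), Atf3 (0.70), Fos (0.64) and Nr4a1 (0.24). Egr2 was higher with Atf3 (0.74) and Fos (0.57), and its partial r with Atf3 was 0.07, not past the test. The receptors nearest to Nr4a1 split: Nr4a2 was higher with Nr4a1 (0.27) and Ier3 (0.18) and lower with Atf3 (-0.42) and Fos (-0.24), and Nr4a3 was higher with Nr4a1 (0.15) and lower with Ier3 (-0.18). The feedback inhibitors, which switch the early response off, were higher in 10 of 13 cases with Egr1 and Atf3, 8 with Fos, 7 with Nr4a1 and 3 with Ier3. Lower were 0 with Egr1, 2 with Atf3, 0 with Fos, 2 with Nr4a1 and 5 with Ier3. Of all probes, 27.5% were higher and 34.5% lower with Egr1, 33% and 40.2% with Atf3, 24.7% and 24.3% with Fos, and 29% and 36.5% with Nr4a1. With Ier3 the shares were 22.7% and 39.6%, which its counts lie close to. Spred1, an inhibitor of RAS signalling, stood at 0.80 with Fos and 0.75 with Atf3 but at -0.35 with Nr4a1 and -0.34 with Ier3. Socs3 (0.44), Spry2 (0.42) and Zfp36l1 (0.42) led with Egr1.

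**Figure D5:**
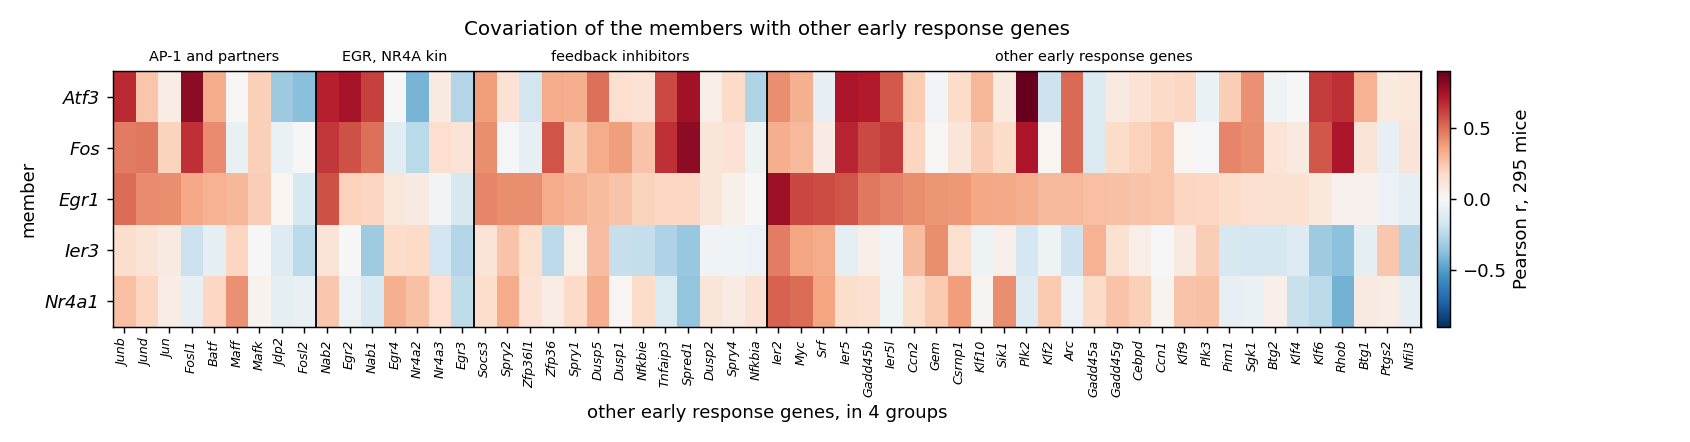
Pearson r over 295 mice of the 5 genes (rows) with other early response genes (columns), in groups of AP-1 genes, EGR and NR4A relatives, feedback inhibitors and other early response genes, each group ordered by r with Egr1. The Egr1 row is red over nearly the whole width, up to 0.77 at Ier2, whereas Atf3 and Fos are darkest at Plk2, Fosl1, Spred1 and Rhob, several of which are blue for Ier3 and Nr4a1.

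Without covariates, NF-kB targets were mostly higher with Atf3, Fos and Egr1. Of 13 measured, 11 were higher and 1 lower with Atf3, 12 and 0 with Fos, and 11 and 1 with Egr1, against 1 and 6 with Ier3 and 5 and 3 with Nr4a1. The shares of all probes were 33% higher and 40.2% lower with Atf3, 24.7% and 24.3% with Fos, 27.5% and 34.5% with Egr1, 22.7% and 39.6% with Ier3, and 29% and 36.5% with Nr4a1. The lower count for Ier3 and both counts for Nr4a1 lie near those shares. Ccl2, a monocyte attractant, had 0.80 with Atf3 and 0.70 with Fos, and Tnf had 0.76 and 0.70. With Egr1 the neutrophil attractant Cxcl1 (0.58), the NF-kB cofactor Bcl3 (0.54) and the subunit Relb (0.52) led instead, and Ccl2 had 0.14. With the macrophage markers in the model the partial r of Ccl2 was 0.02 with Atf3 and -0.02 with Fos, neither past the test. The counts in that model were 4 higher and 4 lower for Atf3, 6 and 1 for Fos, 6 and 1 for Egr1, 2 and 2 for Ier3 and 7 and 1 for Nr4a1, where 40.5% and 33.8%, 23.1% and 18.8%, 23.1% and 29.4%, 18.5% and 25.5%, and 26.6% and 30.5% of all probes were, for the genes as listed. The division of the genes by their counts without covariates was not seen there, and the counts for Atf3 and for Ier3 lie near their shares. Cxcl1, Bcl3 and Relb kept partial r of 0.52, 0.45 and 0.52 with Egr1. Macrophage genes other than the choosing markers count among what the choice used: all 14 measured were higher with Atf3 and with Fos, all 14 lower with Ier3 and 12 lower with Nr4a1, while Egr1 had 9 higher and 1 lower.

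Stress pathways gave smaller groups, with counts to be read against the shares of all probes. Those were 33% higher and 40.2% lower with Atf3, 27.5% and 34.5% with Egr1, 22.7% and 39.6% with Ier3 and 29% and 36.5% with Nr4a1. In the integrated stress response list Atf3 had 4 of 8 higher and 2 lower, with Ddit3, which encodes CHOP, at 0.53 and Atf4, the factor that drives both, at 0.28. Egr1 had 5 higher and 2 lower, with Atf4 at 0.39. Of 9 heat shock genes 3 were higher with Ier3 and 2 lower, with the inducible chaperone Hspa1a at 0.51 and Hsph1 at -0.38, and groups this small cannot be set apart from those shares. Bag3, a cochaperone, was higher with Atf3 (0.54) and Egr1 (0.53). Of 10 cAMP and CREB targets, Nr4a1 had 6 higher and 1 lower, with Sik1 (0.42), the phosphodiesterase Pde4b (0.28) and Nr4a2 (0.27) among them. This list shares Sik1 and Gem with the other early response genes, and Nr4a2 and Nr4a3 with the relatives of Egr1 and Nr4a1. Its counts are therefore not separate from theirs. With covariates Nr4a1 had 5 higher and 0 lower (26.6% and 30.5% of all probes), Atf3 4 and 0 (40.5% and 33.8%), Fos 4 and 1 (23.1% and 18.8%), Egr1 4 and 3 (23.1% and 29.4%) and Ier3 2 and 2 (18.5% and 25.5%). Both counts of 0 were also 0 at an unadjusted limma p under 0.05. Without covariates, Atf3 had 1 higher and 3 lower of these targets, where Rgs2 (0.60) stood against Pck1 (-0.65) and Ppargc1a (-0.39). Of 7 hypoxia genes, 2 were higher and 5 lower with Atf3, with the glucose transporter Slc2a1 at 0.62 and Bnip3 at -0.56.

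The genes most like each member were taken by Pearson r over 295 mice. For Atf3 they included several known from leukocytes: Milr1, an immunoglobulin-like receptor (0.95), the adenylyl cyclase Adcy7 (0.94), Sirpa, which binds CD47 (0.93), the potassium channel Kcnk13 (0.93), the integrin Itgb2 (0.93) and the prostaglandin D synthase Hpgds (0.93). The most negative were Cyp2e1 (-0.77), Park7 (-0.76) and Ddt (-0.75). For Fos they were the potassium channel Kcnn4 (0.86), the myosin Myo1f (0.85), Spi1, which encodes the myeloid factor PU.1 (0.84), Pld3 (0.83), the thromboxane synthase Tbxas1 (0.83) and Cd68. These belong to the relation by which Atf3 and Fos were picked. SCCPDH (-0.70), ANAPC13 (-0.68), both spelled as in the platform table, and Oxnad1 (-0.68) were the most negative for Fos.

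For Egr1 the list was led by Ier2 (0.77), then the histone methylation subunit Wdr5 (0.71), the scaffold protein Homer3 (0.68), the TAK1 partner Tab1 (0.68), the heparan sulfate enzyme Ndst2 (0.68) and Agap3 (0.66). Its most negative were Glrx3 (-0.68), the malate dehydrogenase Mdh1 (-0.59) and the mitochondrial import subunit Timm23 (-0.58). Ier2 had 0.69 with Egr1 in Eif2s3y-high mice and 0.80 in Eif2s3y-low mice, and Glrx3 had -0.67 in Eif2s3y-high and -0.70 in Eif2s3y-low mice. For Nr4a1 the most alike were Prr3 (0.67), the lipid transporter Abca7 (0.65), Akap8l (0.63), the deadenylase subunit Cnot3 (0.63), Creb3l2 (0.62) and the kinase anchor Akap13 (0.62), and the least alike Zfr (-0.59), Snx13 (-0.59) and Rbm18 (-0.58). For Ier3 they were Lrfn4 (0.68), Cxxc5 (0.64), Zfp618 (0.63), Moxd1 (0.62), Crocc (0.62) and the phosphatase Ptpn13 (0.60), against Kcnj15 (-0.55), Virma (-0.55) and Hnf4g (-0.54).

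Several genes like Ier3 moved with the epididymis arrays. On the Eif2s3y-high arrays without epididymis transcripts Zfp618 had r of 0.22 and Moxd1 0.26 with Ier3, against 0.61 and 0.57 over all Eif2s3y-high arrays and 0.65 and 0.66 in Eif2s3y-low mice. Lrfn4 had 0.45 there, against 0.65 over the whole set. Ier3 and Nr4a1 were higher with 9 of 9 epididymis genes over all mice, at r of 0.28 to 0.34 for Ier3 and 0.13 to 0.20 for Nr4a1, and with 0 of 9 (also 0 at an unadjusted limma p under 0.05) in the model with covariates, which has those arrays as a term. Of all probes, 22.7% were higher and 39.6% lower with Ier3 and 29% and 36.5% with Nr4a1, and with covariates 18.5% and 25.5% with Ier3 and 26.6% and 30.5% with Nr4a1. Ier3 was also higher with 8 of 9 mesothelial and epithelial markers, such as the keratins Krt19 (0.53) and Krt8 (0.49), and lower with Lrrn4 (-0.25), and the same counts held in the model with covariates, where Wt1, a mesothelial factor, had a partial r of 0.37. The score of that list had r of 0.62 with Ier3 in Eif2s3y-high mice and 0.55 in Eif2s3y-low mice. Nr4a1 was higher with 8 of the 9 and lower with 1 without covariates, and higher with 0 and lower with 2 in that model. The part of these other cells in the Ier3 values was not tested.

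With Lep, the macrophage markers, set and epididymis arrays in the model, other genes led. For Atf3 they were the G protein Gna12 (partial r 0.75), the small MAF factor Mafg (0.74), the endocytic receptor Mrc2 (0.73) and Stx6 (0.72), against the oestrogen receptor Esr1 (-0.72) and Rpl23 (-0.71). For Fos they were Stard8 (0.53), Kcnn4 (0.52), Hps6 (0.51) and Jund (0.50), against Cbwd1 (-0.49) and Cbr4 (-0.47). Egr1 stayed with Ier2 (0.73) and Wdr5 (0.67), followed by the inositol phosphate kinase Itpkc (0.66) and Unk (0.65), against Glrx3 (-0.64) and Ppia (-0.55). For Ier3 they were the scramblase Plscr1 (0.54), the clock and stress factor Bhlhe40 (0.52), Lrfn4 (0.51) and Bnc2 (0.50), against Pcm1 (-0.45) and Sun5 (-0.42). Bnc2 had r of -0.01 with Ier3 in Eif2s3y-high mice, 0.45 in Eif2s3y-high mice without epididymis transcripts and 0.71 in Eif2s3y-low mice. That difference was not tested for this gene. For Nr4a1 they were Tha1 (0.59), Abca7 (0.57), Akap8l (0.55) and Tnfsf8 (0.55), against Zfr (-0.50) and Pex11g (-0.47).

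The mouse number in the titles, the one label that orders the mice, moved with all 5 genes, where 47.2% of 22894 probes passed (32.2% higher and 15% lower). Without the epididymis arrays 12.3% of probes passed, and with array medians removed 42.6% of the called probes were higher, against 68.2% as deposited. Ier3 had a median of 0.22 in the 98 mice numbered 2 to 117, -0.15 in the 98 numbered 118 to 246 and -0.28 in the 99 numbered 247 to 399. It fell by 0.20 log2 units per 100 numbers (standard error 0.02, r = -0.46, limma adjusted p = 3.66e-14). Nr4a1 fell by 0.07 per 100 numbers (r = -0.27, adjusted p = 3.85e-05), with medians of 0.14, 0.03 and -0.02, and Egr1 by 0.06 (r = -0.16, 0.0151), with medians of 0.02, -0.05 and -0.26. Atf3 and Fos went up with the number, by 0.14 (r = 0.16, 0.0139) and 0.04 (r = 0.14, 0.0412). The call for Fos was lost with array medians removed (r = 0.09, 0.197) and without the epididymis arrays (r = 0.11, 0.25), which numbered 34, 10 and 4 in the groups from low to high numbers. Ier3 kept -0.43 without them (9.35e-09). The relation of Ier3 to Lep within the number groups was -0.47, -0.40 and -0.58, and that of Atf3 to Cd68 was 0.89, 0.90 and 0.91. Between mice next to each other in number, r was 0.36 for Ier3, 0.25 for Atf3, 0.25 for Fos, 0.18 for Egr1 and 0.13 for Nr4a1. The median over all probes was 0.10. The share of probes with a lower value was 96.2% for Ier3, 89.5% for Atf3, 90.1% for Fos and 78.5% for Egr1. It was 61.1% for Nr4a1, whose value lies near the median probe. These differences from the median were not tested. What the number stands for is not given in the labels used here.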

How the data were processed

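Adipose RNA of 295 mice was measured on 2-colour arrays, 1 array per mouse, with the mouse in Cy3 and a common pool in Cy5, per the labels. The authors deposited 1 signed ratio per probe and array, taken here as log10. How it was centred and background-corrected, its base and its direction are not given in the sources used here. Limits at -2 and 2 gave the log base. The direction, mouse over pool, was read from Eif2s3y, which lay at or below -4.16 (log2) in 142 mice. Correlations do not depend on the base. Array medians lay between -0.052 and 0.039 on the deposited scale. Signal over background is not in the table, and the number of arrays limits precision.

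Of 23387 probes, 22894 with values on at least 90% of arrays were used, and 7762 gaps were filled with the probe mean (1 for Atf3, 5 for Egr1). The platform table gave 1 symbol to 13644 probes, several to 48 and none to 9695. Names of 12652 probes were updated by Entrez ID to RefSeq GRCm38.p6. A gene is its most variable probe. Values were multiplied by 3.32 to give log2.

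Each probe was fitted on each member with limma 3.58.1 in R 4.3.3, without covariates, with covariates, with a set interaction and on mouse number, and p-values were adjusted by Benjamini-Hochberg over all probes at 0.05. On simulated data at this size, slopes of 0.5 SD were recovered in 100% of cases and set differences of 0.5 SD in 27% (Atf3) and 54% (Nr4a1). At 0.25 SD, slopes were recovered in 73% (Atf3) and 74% (Nr4a1), and set differences in 1% and 4%. Of the set differences called, 3.4% (Atf3) and 7.9% (Nr4a1) were false. The simulated probes varied independently of one another, which the measured probes do not. Named genes are the members and markers; per member the 6 most positive and 3 most negative r, the 4 and 2 most extreme partial r, and the extremes of each list, each past 0.05. Further list genes were named after their values were seen. Members, lists and tests were chosen with earlier results of these data known. The 295 mice are separate animals. For 1 mouse the title (399) and the source name (339) differ, and the title was used.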

Additional observations from a re-analysis of the deposited data

Results flagged for a closer look

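The results listed here are differences between the Eif2s3y sets in how 1 immediate early gene varied with another, each past a limma interaction test adjusted over all probes and given as the slope in Eif2s3y-high minus that in Eif2s3y-low mice. For Egr1 as the regressor the differences were 0.68 for Atf3, 0.45 for Fos, -0.40 for Ier3 and -0.25 for Nr4a1. With Egr1 as the response they were 0.17 on Atf3, 0.60 on Fos and -0.33 on Ier3. The remaining difference was 0.10 for Fos on Atf3. The slope of Fos on Egr1 stood at 0.45 in Eif2s3y-high mice and 0.0026 in Eif2s3y-low mice.

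Of these 8 differences, those of Fos on Egr1 and of Egr1 on Fos also passed without the 48 epididymis arrays, and the other 6 did not. The tests had no term for Lep or the macrophage markers, whose relations within the sets helped to choose the genes. No explanation was weighed.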

How the results depend on the processing

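No paired analysis was possible because the mice form 1 group with 1 array each. Another probe per member could not be tried, since each has 1. Read as natural log or log2, the Atf3 span would be 2.51-fold or 1.89-fold.

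Over all mice, the pair calls held under every alternative run except that Fos with Nr4a1 was not called on ranks (-0.11) and, with covariates, was called on ranks (0.17). Counts of called probes without covariates and with them stayed within 1.5 times. Without the epididymis arrays, probes whose slope differed between the sets numbered 2195 for Atf3, 3765 for Egr1, 2531 for Ier3 and 595 for Nr4a1, and 5280 for Egr1 with array medians removed. Probes called with mouse number numbered 2818 without those arrays.

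Without the epididymis arrays, set differences no longer passed for Fos on Atf3 (0.088), Egr1 on Atf3 (0.15), Atf3 on Egr1 (0.54), Ier3 on Egr1 (-0.24), Nr4a1 on Egr1 (-0.15) and Egr1 on Ier3 (-0.056). They newly passed for Ier3 on Atf3 (0.21), Ier3 on Fos (0.70) and Fos on Ier3 (0.30). They turned sign, without passing, for Egr1 on Nr4a1 (0.13) and Ier3 on Nr4a1 (-0.20). With medians removed, Egr1 on Atf3 (0.16) did not pass. Fos with mouse number did not pass with medians removed (r = 0.094) or without epididymis arrays (0.11).

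Removing medians changed the higher share among called probes from 68.2% to 42.6% for mouse number, and for set differences from 58.5% to 40.2% (Fos), 62.2% to 51.8% (Egr1), 31.8% to 56.4% (Ier3) and 34.2% to 60.7% (Nr4a1).

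Relations to the choosing markers that moved were, in Eif2s3y-high mice, Egr1 with Lep (-0.17) and, with the Adgre1 and Cd68 mean, Egr1 (0.37) and Ier3 (-0.16). In Eif2s3y-low mice they were, with Lep, Atf3 (0.32) and Fos (0.42) and, with that mean, Atf3 (0.87), Fos (0.74), Egr1 (-0.15) and Ier3 (-0.45). By mouse number they were Ier3 with Lep (-0.40), Egr1 (0.36) and Ier3 (-0.17) with the mean in the middle group, and Fos with Lep (0.033) and Nr4a1 with the mean (-0.066) in the upper.

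Of the values of named genes under alternatives, 1746 kept direction and call, 50 lost the call and 8 turned sign. With the set as a covariate Atf3 had 0.034 with Klf2, 0.17 with Vcam1 and -0.23 with Cuzd1, and Fos 0.0089 with Gadd45a. With the first principal component of all probes in the model, Ier3 had -0.029 with Dusp5, -0.031 with Slc7a11, 0.010 with Egln3 and -0.15 with Spag11a. The cause was not tested.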
